A study of Mus musculus with 4 samples.

Results

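The central pair apparatus genes examined here were the 7 mouse genes Hydin, Spag6, Spag6l, Spag16, Spag17, Spef1 and Spef2, chosen by name for the axonemal structure to which their products belong. The choice was made with earlier results of these data known. These members were 7 of the 21938 protein-coding genes annotated on chromosomes 1 to 19, X and Y. Each was described by the peaks of the transcription factor RFX2 at its promoter, taken as 1000 bp upstream to 500 bp downstream of any transcription start site (TSS) in the GENCODE annotation. RFX2 binding had been mapped by chromatin immunoprecipitation and sequencing (ChIP-seq) in testis of 2 wild type mice of a mixed C57BL/6, 129/Sv and FVB/N background, with an input library for each. The labels give an age of 29 to 30 postnatal days, whereas the study's main text speaks of dissociated germ cells from a younger age, and the peak lists leave this difference undecided. All animals were wild type and untreated, so no condition was contrasted. The data are 3 peak lists, namely 1 for each replicate and a combined list taken as a call on the reads of both, and the combined list is therefore no independent replication of the other two. Read depths are unknown, and with 2 animals no test was made.

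The motile axoneme of cilia and of the sperm tail holds a pair of single microtubules at its center, decorated with protein projections and linked to the surrounding doublets through the radial spokes. This central apparatus takes part in the control of dynein activity along the doublets, and its loss leaves sperm tails and many cilia immotile or poorly motile. RFX2 is one of the RFX transcription factors, which recognize the X-box, an inverted repeat of 2 half-sites, and regulate many genes of ciliary assembly and movement.

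The sequences under the peaks are shown first, because the members differed in how closely they matched the X-box. The X-box was searched as the half-site GTTGCC, the bases AT and the reverse complement of the half-site, GGCAAC. It spans 14 bases and reads the same on both strands, so that a single search covers both. The promoter of Dync2li1, which encodes a dynein-2 light intermediate chain and served as the control site of the study, contains it without a mismatch, 2 bp from the peak summit. In all lines the site is in capitals with 8 flanking bases on each side, on the strand of the gene, in build GRCm38.

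Dync2li1, chr17:84626445-84626474 (+): gtgacgtcGTTGCCATGGCAACcgaggagc

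The closest match of each member within 100 bp of the summit was as follows. At Spag17, 2 sites tied at 4 mismatches, and a single site of these is shown. For Spag6, which had a promoter peak in the replicate lists alone, it lies within 100 bp of the peak center of replicate 2.

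Hydin, chr8:110266948-110266977 (+): actctgcgGTTGCTGTGGCAACagatggta
Spag6l, chr16:16829308-16829337 (−): tgctgtcgGTTGCCCTGGAGACgcatacac
Spag16, chr1:69826859-69826888 (+): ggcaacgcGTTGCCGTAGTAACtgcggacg
Spef2, chr15:9748855-9748884 (−): ctgaaagaGCTTCCTTAGCAACtggttgcc
Spef1, chr2:131174825-131174854 (−): tagcgacgGTTGCTATGGTTTCggaaaaca
Spag17, chr3:99885410-99885439 (+): tggtctcgGTTACCAAGGCCTCagagacgc
Spag6, chr2:18698961-18698990 (+): acggctgcGTTCCGATTCCGACtggttgcc

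Differences are written as the base of the X-box, its position from 1 at the 5′ end, and the base at the site. Hydin differed at 2 bases, C6T in the left half-site and A7G between the half-sites, and kept the right half-site intact. Spag6l differed at 3 bases, with an intact left half-site, A7C between the half-sites, and C11A and A12G in the right half-site. Spag16 likewise had an intact left half-site and differed by A7G, G9A and C11T. The best sites of Spef2, Spef1 and Spag17 had 4 differences each, and that of Spag6 had 5. Both half-sites were altered in Spef2 by T2C, G4T and G9A, and in Spef1 by C6T, C11T, A12T and A13T. In the printed site of Spag17 G4A fell in the left half-site and A12C and A13T in the right half-site.

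With at most 3 mismatches allowed, 3 of the 7 members, namely Hydin, Spag6l and Spag16, held an X-box near the summit or center of their promoter peak. Of the 1003 combined-list peaks that met a protein-coding promoter, 58.9% held one under the same rule, and so did 2.51% of all promoters within 100 bp of the 5′-most coding TSS. In windows 1000 bp to the right of the summits of these promoter peaks the share was 0.798%. The median G+C content of these shifted windows was 45.3%, against 59.2% about the summits, so the 2 sets differ in composition. The count of members was 1 with at most 2 mismatches and 6 with at most 4, at which the shares of the combined-list promoter peaks were 33.9% and 78.1%. The members' share was therefore not above that of other promoter peaks at the main setting. The same holds among the 6 members with a combined-list promoter peak, which leave out Spag6.

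**Figure D1:**
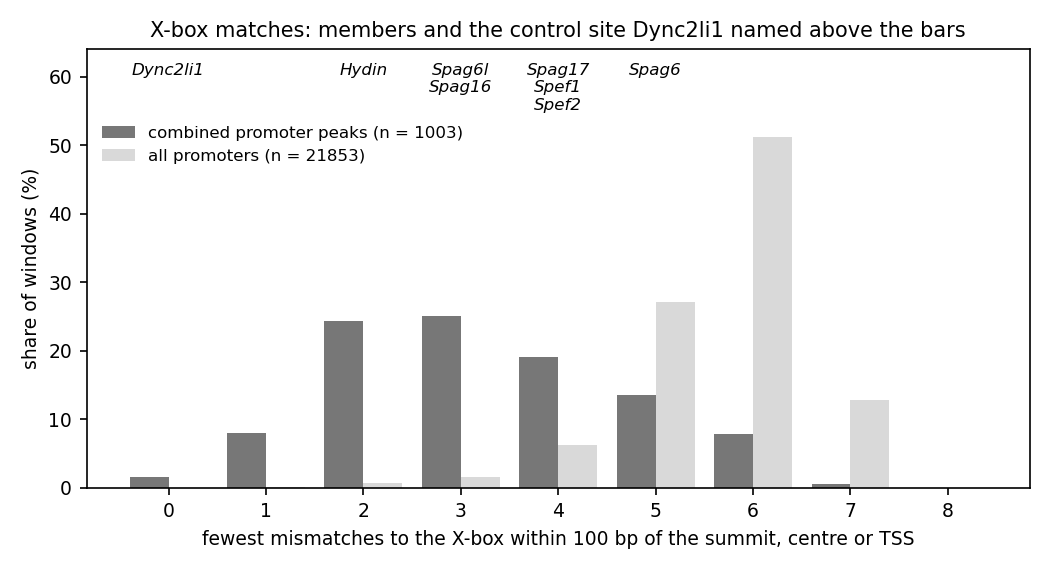
Fewest mismatches to the 14-base X-box (x axis) against the share of windows in percent (y axis) for 1003 combined-list promoter peaks (dark bars, window about the summit) and 21853 protein-coding promoters (light bars, window about the TSS). The members and the control site Dync2li1 are named above the number of mismatches of their own best site, from 0 at Dync2li1 to 5 at Spag6, the latter about the peak center of replicate 2.

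The half-sites of an X-box can also stand at another distance from each other. A search added after these sites had been seen allowed 0 to 3 bases between the half-sites and at most 2 mismatches over both of them. It found a pair at 4 of the 7 promoters, adding Spef2 to the 3 genes above, against 64.1% of the combined-list promoter peaks and 5.1% of all promoters. All 4 are among the 6 members with a combined-list promoter peak. At Spef2 the pair was centered 1 bp from the summit, had 3 bases between the half-sites and 1 difference, A13G counted from the start of the pair. It is shown with the half-sites in capitals and 7 flanking bases.

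Spef2, half-sites 3 bases apart, chr15:9748839-9748867 (−): gcaactgGTTGCCctgGGCGACgggaaga

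An exact half-site, in either direction, occurred within 100 bp of the summit or center at 5 of the 7 promoters, and Spag16 had 2. Spag17 and Spef1 had none. At least 1 exact half-site was present at 56.8% of the combined-list promoter peaks and at 8.5% of all promoters. Spag6, among the 5, has no combined-list promoter peak. The stretches of 150 bases that end with the sites of Hydin and Spag16 show the setting of the site, which is in capitals. In Spag16 the second exact half-site, in the opposite direction, lies 2 bases before the capitals. The Hydin stretch is noncoding with respect to Hydin but lies in an exon of Gm26832, an antisense transcript.

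Hydin, chr8:110266820-110266969 (+): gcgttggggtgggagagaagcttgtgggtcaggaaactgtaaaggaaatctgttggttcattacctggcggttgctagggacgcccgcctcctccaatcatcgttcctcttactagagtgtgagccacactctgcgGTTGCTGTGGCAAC
Spag16, chr1:69826731-69826880 (+): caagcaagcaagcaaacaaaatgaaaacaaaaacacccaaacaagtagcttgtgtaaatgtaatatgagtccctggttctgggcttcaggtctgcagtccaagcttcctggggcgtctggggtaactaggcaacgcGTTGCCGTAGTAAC

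A promoter peak was present in the combined list at 6 of the 7 members, against 5.26% of all protein-coding genes. In replicate 1 a promoter peak was present at 7 members, against 14.0% of all genes. The replicate 2 list likewise had one at 7 members, against 11.3%. Both replicates had a promoter peak at 7 of 7 members, against 9.05% of all genes. The exception in the combined list was Spag6. Peaks are scored on a −log10 scale, as −log10 p in the combined list, and a score rises with read depth as well as with enrichment, so that values are best read within a list. The lowest score was 43.2 in the combined list, 2.03 in replicate 1 and 2.08 in replicate 2. A promoter peak in the replicate lists can therefore be very weak.

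**Figure D2:**
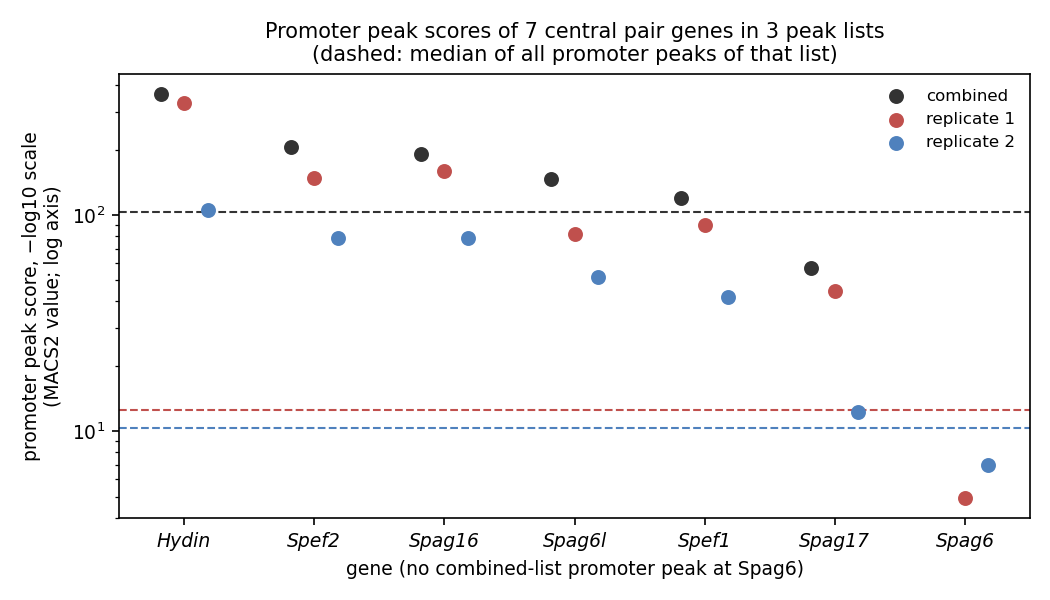
Promoter peak score on the −log10 scale (logarithmic y axis) for each member (x axis) in the combined list (black), replicate 1 (red) and replicate 2 (blue), with the median of all promoter peaks of each list as a dashed line of the same color. Points are single peaks without error bars. Hydin is highest in each list, Spag17 is the only one of 6 members below the combined-list median of 103, and Spag6 lies below the median of both replicates.

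Hydin encodes a very large protein of a central pair projection, and its loss in mice leads to hydrocephalus. Its gene on chromosome 8 (110266977 to 110610253, plus strand) had the strongest promoter peak of the members in each list. The combined peak, from 110266367 to 110267641, had a −log10 p of 364, rank 11 of 2726 peaks, and a 52.2-fold enrichment over local background. Its score was 330.1 in replicate 1, at rank 10 of 39825 peaks, and 106 in replicate 2, at rank 96 of 21274. The summit lay 15 bp upstream of the TSS, on the X-box itself. Among the 1003 promoter peaks of the combined list, 99.2% scored lower. The same peak met the promoter of Gm26832, whose signal cannot be told apart from that of Hydin.

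Spef2 encodes a central apparatus protein required for sperm tail formation. The gene lies on the minus strand of chromosome 15 (9578193 to 9748868). The combined peak, from 9748315 to 9749053, had a −log10 p of 206, rank 236, and a fold enrichment of 23.0. Replicate 1 scored 149 at rank 297 and replicate 2 scored 78.3 at rank 219. The summit was 14 bp downstream of the TSS, in the first exon.

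Spag16 encodes a WD-repeat protein of the central apparatus. The gene lies on the plus strand of chromosome 1 (69826970 to 70725132) and is the longest of the 7, at 898.2 kb. Its combined peak, from 69826176 to 69827367, had a −log10 p of 192, rank 276, and a fold of 19.2. Replicate 1 scored 159.9 at rank 249, and replicate 2 scored 78.3, the same value and rank as at Spef2. Its summit lay 86 bp upstream of the most upstream GENCODE TSS and 12 bp downstream of the RefSeq TSS. Spef2 was above Spag16 in the combined list, below it in replicate 1 and level with it in replicate 2, so the order of the pair was not fixed by these data.

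Spag6l and Spag6 encode closely related armadillo-repeat proteins of the central apparatus. Spag6l lies on the minus strand of chromosome 16 (16753016 to 16829456). Its combined peak, from 16828910 to 16829854, had a −log10 p of 146, rank 529, and a fold of 30.7, and its summit coincided with the coding TSS of Spag6l-201. Replicate 1 scored 82.0 at rank 952 and replicate 2 scored 51.6 at rank 491. By fold enrichment Spag6l stood at rank 219, second among the members to Hydin at rank 8, whereas Spef2 stood at rank 612 and Spag16 at rank 1015. The order of the members thus depended on whether −log10 p or fold was read.

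Spef1 encodes a protein that binds and bundles microtubules and is needed for the central pair. The gene lies on the minus strand of chromosome 2 (131170261 to 131187282) and has 3 annotated TSSs. The combined peak, from 131174106 to 131175441, had a −log10 p of 119, rank 758, and a fold of 17.0. Replicate 1 scored 89.8 at rank 813 and replicate 2 scored 41.9 at rank 674. Spef1 was above Spag6l in replicate 1 and below it in the other lists. The summit lay 164 bp upstream of the TSS of Spef1-203, inside an exon of a longer transcript, and 7 bp upstream of the RefSeq TSS. The upstream edge of the peak reached the 3′ end of Cenpb, which lies on the same strand within the annotated span of Spef1. No list had a peak in the promoter of the 5′-most coding TSS of Spef1, at 131187282.

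Spag17 encodes a large protein of another central pair projection. The gene lies on the plus strand of chromosome 3 (99885406 to 100143322). The combined peak, from 99884894 to 99885777, had a −log10 p of 57.1, rank 2064, and a fold of 15.1. By −log10 p it was the lowest of the 6, and 16.8% of the combined-list promoter peaks scored lower. Its fold, also the lowest of the 6, was close to the median fold of 15.0 over the combined-list promoter peaks. Replicate 1 scored 44.7 at rank 2003 and replicate 2 scored 12.3 at rank 2904. Its summit lay 18 bp upstream of the TSS.

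Spag6, on the plus strand of chromosome 2 (18694032 to 18750413), differed from the other 6 members. At its coding TSS the peak of replicate 1, from 18698860 to 18699104, scored 4.94 at rank 19288. The peak of replicate 2, from 18698815 to 18699070, scored 6.99 at rank 5720. Of all promoter peaks, 24.0% in replicate 1 and 37.7% in replicate 2 scored lower than these. The median score of all peaks was 4.47 in replicate 1 and 5.06 in replicate 2. The nearest peak of the combined list lay outside the promoter, from 18690260 to 18690885, with a −log10 p of 100.4, rank 1033, and a fold of 15.0. Its summit was 3564 bp upstream of the first GENCODE TSS, which belongs to a noncoding transcript, and 8555 bp upstream of the first TSS of a coding transcript. RefSeq starts an mRNA of Spag6 3543 bp from the summit. Both replicates had this upstream peak, with scores of 66.0 at rank 1280 and 43.1 at rank 644. The upstream peak thus scored 13.4 times the promoter peak in replicate 1 and 6.17 times in replicate 2.

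No GENCODE gene start lay nearer to the upstream summit than those of Spag6. RefSeq places there a predicted single-exon gene on the opposite strand, Gm46725, whose start is 263 bp from the summit and whose predicted exon includes it. Which gene, if any, this peak belongs to was not tested.

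**Figure D3:**
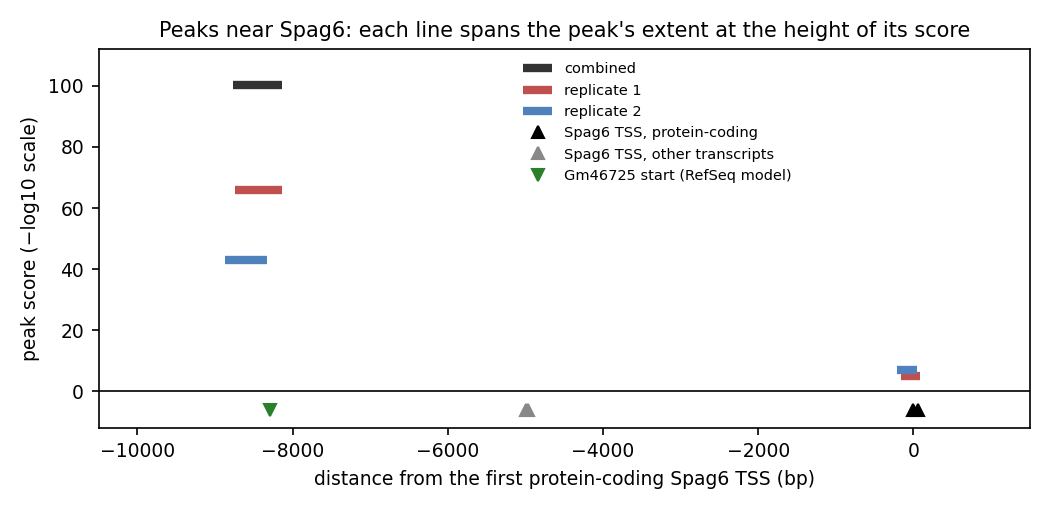
Peaks near Spag6 in the 3 lists, as lines that span each peak (x axis, bp from the first protein-coding TSS, upstream to the left) at the height of its score (y axis, −log10 scale). Triangles mark the coding TSSs (black), other Spag6 TSSs (gray) and the RefSeq start of Gm46725 (green). The upstream peak scores 100.4, 66.0 and 43.1, and the peaks at the coding TSS score 4.94 and 6.99.

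The scores of the 2 replicates were compared as a ratio. Scores rise with read depth, which is unknown, so the ratio is no measure of error. Over the 1003 combined-list promoter peaks, the replicate 1 score was a median of 2.08 times that of replicate 2, with quartiles of 1.55 and 2.76. Spag6l at 1.59, Spef2 at 1.90, Spag16 at 2.04 and Spef1 at 2.14 lay between the quartiles. Hydin at 3.12 and Spag17 at 3.64 lay above them, and 17.8% and 11.7% of the promoter peaks had higher ratios than these. The ratio at the Spag6 upstream peak was 1.53. Among the members, only the Spag6 promoter peak had the higher score in replicate 2, with a ratio of 0.708. By place within each list, Spag6l also stood slightly higher in replicate 2. There 86.3% of promoter peaks scored lower than it, against 85.3% in replicate 1. Among replicate 1 promoter peaks scoring below 10, only 239 of 1412 were met by a replicate 2 peak, and over those 239 the median ratio was 0.905, with quartiles of 0.615 and 1.35.

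**Figure D4:**
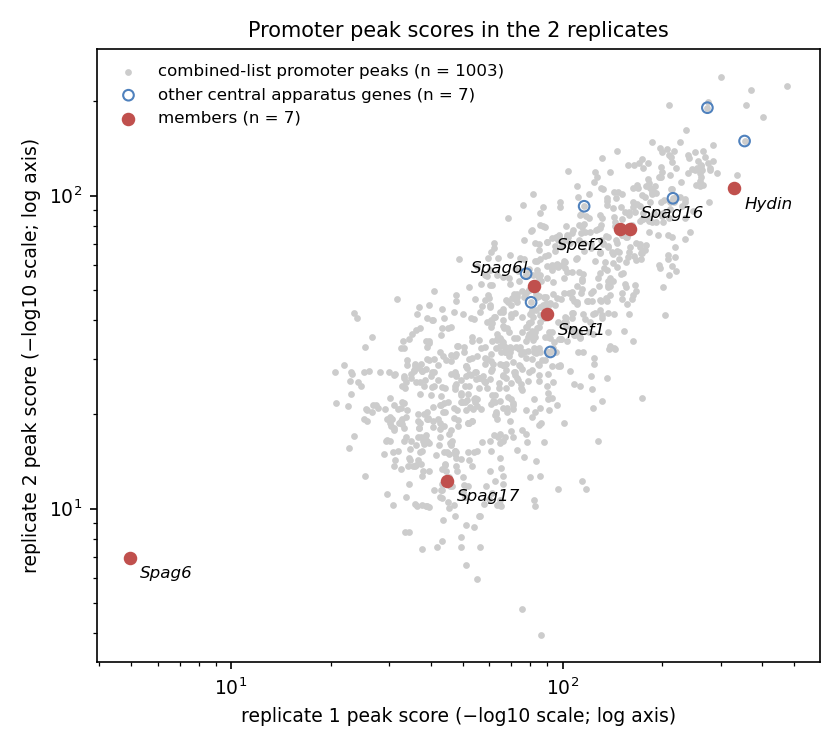
Score of the promoter peak in replicate 1 (x axis) against replicate 2 (y axis), both on the −log10 scale with logarithmic axes, for 1003 combined-list promoter peaks (gray), 7 other central apparatus genes (open circles) and the 7 members (red, named). The 6 members with a combined-list promoter peak lie within the gray cloud, and Spag6 lies to the left of it, at 4.94 in replicate 1 and 6.99 in replicate 2.

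The summits of the 6 combined promoter peaks lay a median of 16.5 bp from the nearest TSS of the member, and 5 of the 6 were within 100 bp. Over the 1003 promoter peaks the median distance to a TSS was 58 bp, and 64.3% were within 100 bp. By GENCODE, Hydin, Spag16, Spag17 and Spef1 had the summit upstream, Spef2 downstream, and Spag6l at the TSS. By RefSeq all 6 summits lay between 6 and 29 bp from a TSS, and those of Spag16, Spag6l and Spef2 were downstream. Peak widths ranged from 739 bp at Spef2 to 1336 bp at Spef1, around the median of 879 bp for the promoter peaks. Replicate lists give no summit, and a peak center need not be where the signal is highest. At Spef2 the centers of both replicate peaks were 181 and 175 bp downstream of the TSS, whereas the combined summit was at 14 bp. At Spag16 the centers were 241 and 157 bp upstream.

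**Figure D5:**
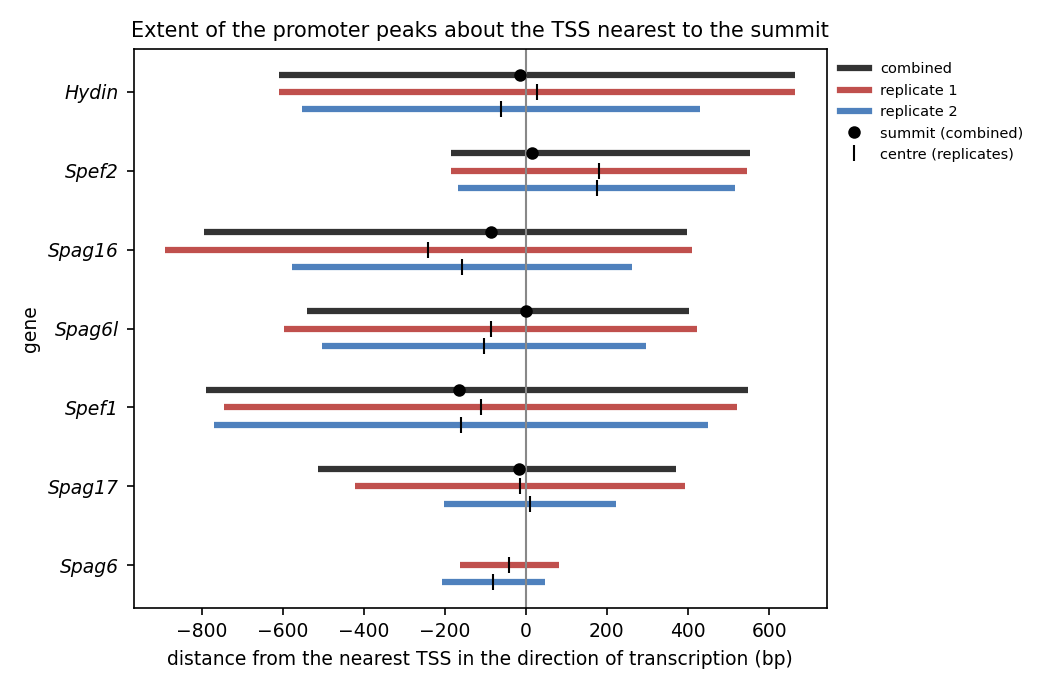
Extent of the promoter peak of each member (y axis) in the combined list (black), replicate 1 (red) and replicate 2 (blue), in bp along the direction of transcription from the TSS nearest to the combined summit (x axis). For Spag6 the TSS of Spag6-201 is used. Dots mark combined summits, from 164 bp upstream at Spef1 to 14 bp downstream at Spef2, and ticks mark the centers of replicate peaks.

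The 201-bp windows about the 6 combined summits had a G+C content of 51.2% at Spef1 to 63.7% at Spag16, with a median of 56.0%, against a median of 59.2% over the combined-list promoter peaks. Since only reads with a single location were kept, a promoter shared between Spag6 and Spag6l would be under-counted. Of the words of 32 bases in the peaks, between 96.5% at Spag16 and 100% at Spef2 and at the Spag6 promoter peak occurred once in the genome, and 99.9% did at Spag6l.

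Away from their promoters the members held no peak of the combined list, which has 0.1 peaks per 100 kb over the whole genome. Over the summed gene length of 1819.9 kb, replicate 1 had 27 peaks outside the promoters and replicate 2 had 13. These are 1.48 and 0.714 peaks per 100 kb, beside 1.46 and 0.781 over the whole genome. The genome figures count every peak, those in promoters and between genes included, so the 2 rules differ. The highest of these scores was 17.4 in replicate 1 and 8.0 in replicate 2, and the lowest were 2.34 and 3.50. Spag16 held 16 of the 27, at 1.78 per 100 kb. Also among the 27 were a Hydin peak centered 998 bp and a Spef2 peak centered 597 bp downstream of a TSS. This Hydin peak met the promoter of Gm26832. In only 2 places did the replicates overlap, both in introns. The one in Spag16, near 70480276, scored 17.4 in replicate 1 and 5.18 in replicate 2. The one in Spef2, near 9586817, scored 15.0 and 8.0.

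For comparison, 10 other genes of the central apparatus are reported, namely Cfap46, Cfap47, Cfap54, Cfap65, Cfap69, Cfap74, Cfap221, Kif9, Mycbpap and Stk36. A combined-list promoter peak was present at 7 of them, beside 6 of the 7 members. The −log10 p values were 231 at Cfap54, 183 at Cfap221, 119 at Cfap46, 115 at Cfap74, 93.8 at Cfap69 and 373 at Kif9, a kinesin of the central apparatus, whose peak also met the promoter of Klhl18. The highest was 446 at Cfap65, above Hydin. These 7 had a median of 183, against 169 for the 6 members. Scores above the median of 103 were found at 6 of these 7 genes and at 5 of the 6 members. Mycbpap and Stk36 had promoter peaks in both replicates and Cfap47 in replicate 1 only. Their highest replicate score was 26.9, at Stk36 in replicate 1, so that they stood between Spag6 and the other members in that list.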

How the data were processed

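The authors sequenced RFX2 ChIP and input DNA from 2 wild type mice. Sample titles gave the group and the replicate number. Per the labels and the methods of the study, reads were processed with CASAVA 1.8.2, mapped to GRCm38 with Bowtie 0.12.7 keeping reads with 1 location, and peaks were called against input with MACS2 2.0.10.20130520. Reads of a second sequencing run of replicate 2 that mapped to the human genome had been removed, which can also remove conserved mouse sequence. The deposited replicate lists hold a single −log10 value for each peak, and whether a p-value or a q-value underlies it is not given in the sources used here. The deposited combined list gives a score equal to the whole part of 10 times −log10 p, −log10 p and −log10 q, the summit, and the fold enrichment, a ratio to the local background. The study's methods describe replicate calls at a permissive p-value threshold. From these, a set of reproducible peaks was selected by the irreproducible discovery rate (IDR) between replicates. The combined list is close to that set in size but not equal to it, which call it holds is not stated, and it was treated as a pooled call. Inputs entered only through peak calling, and no read counts were used.

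Promoters (1000 bp upstream to 500 bp downstream) were those of every TSS in GENCODE mouse release 21 on GRCm38 patch 6, a later annotation than the one behind the files. Cfap47 was matched through its older symbol Gm7173. A peak met a promoter at an overlap of 1 bp or more, and where several did, the highest score was used. Ranks are by score, with ties given the best rank. Background shares were computed with the same rule over all protein-coding genes, and counts were checked with bedtools 2.31.1. Sequence was read from RefSeq's GRCm38 patch 6 genome. Overlaps, positions and the motif search were tested on simulated data. The members, the list of other central apparatus genes and the rule for named genes (all members with their peaks, other central apparatus genes with a combined-list promoter peak, genes sharing a peak, list neighbors and the control site) were chosen with earlier results of these data known. Some items that this rule covers are not reported here.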

Additional observations from a re-analysis of the deposited data

How the results depend on the processing

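The count of 6 members with a combined-list promoter peak stayed at 6 with a promoter of 500 bp upstream to 50 bp downstream, with the summit required inside the promoter, and with RefSeq TSSs, an alternative added after the data were seen. It was 5 with the 5′-most coding TSS alone, which removed Spef1, and 5 in the upper 50% of the list by score, which removed Spag17. The counts of 7 members in replicate 1, in replicate 2 and in both became 6 with the 5′-most coding TSS alone, without Spef1, and remained 7 under the other alternatives. Leaving out either replicate only returns the count of the other, given above as 7, and so adds no check. The count of 7 other central apparatus genes was 7 under every alternative tried. Shares of all genes under these alternatives are not given, so these counts have no background share beside them. Members with an X-box numbered 3, changed to 1 with at most 2 mismatches and to 6 with at most 4, stayed at 3 over the whole peak, and came to 4 with the variable spacing added after the data were seen. The median distance to the TSS was 16.5 bp from the summit, 82 bp from the peak center, 22 bp with the 5′-most coding TSS and 12.5 bp with RefSeq TSSs. No paired analysis was possible because the lists hold peaks called against input and no per-sample values of input. With read depth unknown, a weak or missing peak, as at the Spag6 promoter in the combined list, does not show that binding is absent.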

Other observations

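By −log10 p alone, each member with a combined-list promoter peak stood beside the following promoter peaks in that list. Hydin, at place 8 of 1003 promoter peaks, with a −log10 p of 364, stood next above Pef1 at 348. Spef2, at 206, stood between the shared promoter of Casc1 and Etfrf1 and the promoter of Tctex1d2, both also at 206. Spag16, at 192, stood between Cwc25 and Minos1, both at 192. Spag6l, at 146, stood between Fam183b and Ubxn2b, both at 146. Spef1, at 119, stood between Acap2 and Naa11, both at 119, and Spag17, at 57.1, between AI467606 at 57.2 and Slc9a8 at 56.9. Likeness here is in this single value, and peaks that share a value have no order between them.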
